A study of Mus musculus with 5 samples.

Results

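Visceral fat of obese mice given resveratrol was compared with visceral fat of a lean mouse, gene by gene, in messenger RNA counts. The comparison used every library that the labels put in these groups, the 2 resveratrol libraries and the 1 control library, out of 5 libraries in the series. All mice were male C57BL/6, an inbred laboratory strain. The control library came from standard chow and vehicle, and the labels give the same ages and durations to every group, with none stated for the control alone. Both resveratrol libraries came from mice fed from 8 weeks of age on a high-fat diet, in which fat gave 60% of the calories, over 8 weeks. From 16 weeks of age these mice took resveratrol at 2.25 mg/kg through a gastric tube every day over 28 days. The labels do not say whether the high-fat diet went on during treatment. The other 2 libraries, from obese mice given vehicle, entered the estimate of the spread and are quoted where a level in them bears on a gene. Against this control, diet and resveratrol changed together, so their effects cannot be told apart here.

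White fat stores triglyceride in adipocytes, which take up fatty acids through lipoprotein lipase, release them through hormone-sensitive and adipose triglyceride lipase, and secrete the hormones leptin and adiponectin. In male mice the large abdominal fat pad is attached to the epididymis, the duct in which sperm mature, and close to the vas deferens, a duct with a thick smooth muscle wall. Resveratrol is a plant polyphenol studied for its link to the deacetylase SIRT1 and the energy sensor AMPK. The unfolded protein response raises chaperones of the endoplasmic reticulum when secretory load is high. The circadian clock sets daily rhythms of metabolic genes through activators and repressors that act on each other.

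A total of 24779 genes had enough counts to be tested, at 27026597 counts in the control library and 21646089 and 26486024 counts in resveratrol libraries 1 and 2. Levels are CPM, counts scaled to a library's effective total, and they compare a gene between libraries, not genes with each other. Differences are log2 values of resveratrol minus control from edgeR, with a standard error (SE). Where a pair of resveratrol values is given, resveratrol 1 comes first. The control group had no replicate. Nothing in the labels says that the resveratrol libraries were taken from different mice, so a p-value describes the spread among libraries, which may be technical. A count of 3 in a library corresponded to 0.105 to 0.157 CPM, the floor used for a fold against a count of 0.

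The libraries differed widely in the levels of epididymal, adipocyte and smooth muscle genes, which limits the reading of every later result. The part of tissue mixture in those results was not tested. The 20 genes of an epididymis list summed to 70974 CPM in control, 3419.98 CPM in resveratrol 1 and 0.545 CPM in resveratrol 2. Crisp1 alone gave 3397 CPM of the resveratrol 1 sum, so that sum does not show an intermediate level of the list. Of 19 tested members 18 were below control in both resveratrol libraries, and 7 genes of the list had 0 counts in resveratrol 1. The 20 genes of an adipocyte list, which check the tissue label, summed to 1047, 9684 and 45655 CPM. All 20 were detected in the control library, from 0.488 CPM for Cidea to 257 CPM for Acsl1. Cebpb stood higher there than in resveratrol 1. The 16 genes of a smooth muscle list summed to 3293, 72412 and 1715 CPM. Control thus had the highest epididymal sum and the lowest adipocyte sum, and resveratrol 1 the highest muscle sum. In bulk tissue, fewer cells of a type and less RNA in each cell cannot be told apart. Across genes, log2 CPM of resveratrol 1 correlated at 0.836 with control and at 0.887 with resveratrol 2, and control with resveratrol 2 at 0.760. These values are descriptions over genes, which are not replicates.

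Most adipocyte, lipolysis, matrix and macrophage genes stood higher in both resveratrol libraries than in control. Most epididymal genes, endoplasmic reticulum chaperones and ribosomal protein genes stood lower. Both resveratrol libraries were above control for 9340 genes (37.7%) and below it for 10155 genes (41%). Both were at least 4-fold higher for 1399 genes (5.65%) and at least 4-fold lower for 2960 genes (11.9%). With only genes of 1 CPM or more in 2 libraries these counts were 1238 and 549. That filter removes, by construction, genes that reach 1 CPM in control alone. The fall in the lower count therefore does not show which side has more genes. These shares over all genes are the background for the count of each list. The resveratrol libraries lay 4-fold or more from each other for 4863 genes, 19.6% of those tested. In edgeR's quasi-likelihood test 0 genes (0%) passed an adjusted p of 0.05, and the smallest adjusted p was 0.134. An unadjusted p under 0.05 was reached by 2602 genes that were higher (10.5%) and by 1994 that were lower (8.05%). DESeq2 called 3031 genes and limma-voom 80. With no filter on low counts edgeR called 1671. With either resveratrol library left out, the spread came from the obesity pair alone, so the count of called genes is not comparable. Every difference given here is therefore a level and a size, not a call.

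**Figure D1:**
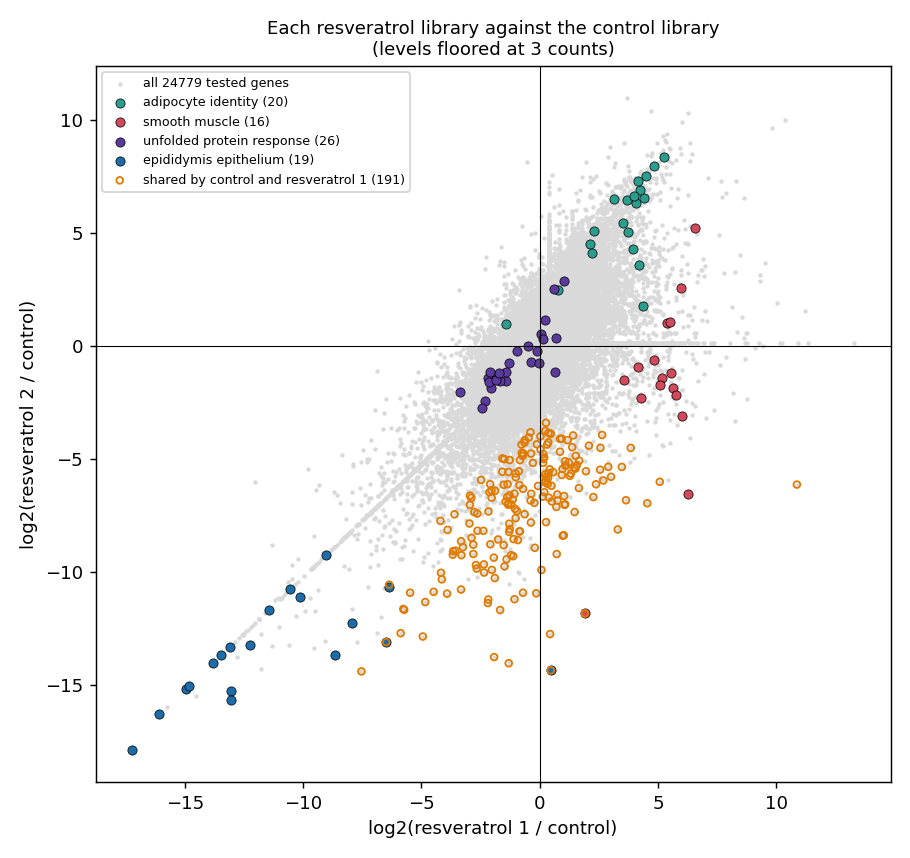
Each point is a tested gene, with the log2 ratio of resveratrol 1 to control on the x axis and that of resveratrol 2 to control on the y axis, both with levels raised to the 3-count floor. Coloured points are 4 gene lists and rings are the 191 genes high in control and resveratrol 1 alone. The epididymis list lies at the lower left except Crisp1, the adipocyte list mostly at the upper right, and the smooth muscle list to the right, with 12 of its 16 genes below control in resveratrol 2.

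The 9 higher genes given here, from the 10 with the smallest p, stood close together in the resveratrol libraries and low in control. With a single control, a small p favours genes whose pairs lie close and apart from control. The closeness of the pair therefore follows from the choice and is not a separate result. Bmp3 (ENSMUSG00000029335), a bone morphogenetic protein gene of the TGF-beta family, had no counts in control and reached 94.2 and 84.6 CPM in resveratrol 1 and 2. It was at least 854-fold higher over the mean of the pair. Kcnk3 (ENSMUSG00000049265), a gene of a potassium leak channel expressed in fat cells, had no counts in control and reached 137 and 107 CPM, at least 1164-fold higher. Adra1d, an alpha-1 adrenergic receptor gene, was at 5 counts in control, 0.174 CPM, and at 35.2 and 27.9 CPM with resveratrol. Its log2 difference was 7.46 (SE 0.53). Adap1, which encodes an Arf GTPase-activating protein, stood at 0.488 CPM in the control library, with 66.8 and 84.5 CPM in resveratrol 1 and 2, a log2 difference of 7.26 (SE 0.45).

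Growth factor and membrane genes followed in this set. Fgf10, a fibroblast growth factor gene of fat progenitors, was at 1.08 CPM in control against 40.6 and 30.1 CPM with resveratrol, a log2 difference of 5.02 (SE 0.44). Mcub, the gene for an inhibitory subunit of the mitochondrial calcium uniporter, stood at 0.802, 33.5 and 26.02 CPM in control, resveratrol 1 and resveratrol 2. Olfm1, an olfactomedin gene, was at 6.42 CPM in the control library, with 193 and 228 CPM in resveratrol 1 and 2, and Adam23, a disintegrin gene, at 2.16 CPM in control against 53.2 and 37.8 CPM with resveratrol. Mbp, known for myelin and also made in immune cells, stood at 5.93, 49.4 and 54.8 CPM in control, resveratrol 1 and resveratrol 2. The adjusted p of these 9 genes was 0.134 to 0.175 in edgeR. Bmp3, Kcnk3 and Adap1 also stood far above control in the obesity libraries, where Bmp3 stood at 61.8 and 59.9 CPM, Kcnk3 at 125 and 159.8 CPM and Adap1 at 87.5 and 83.6 CPM.

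The 10 lower genes with the smallest p were high in control and far lower in both resveratrol libraries. Lipg (ENSMUSG00000053846), the endothelial lipase gene, whose product cleaves phospholipids of high-density lipoprotein, stood at 147 CPM (95% exact interval 143 to 152) in control. It stood at 0.909 CPM (0.555 to 1.40) in resveratrol 1 and 0.817 CPM (0.506 to 1.25) in resveratrol 2, and these intervals cover counting error only. The pair did not differ beyond counting error, and the log2 difference from control was -7.41 (SE 0.40). The obesity libraries had 0.939 and 1.38 CPM, so control alone was high. Slc17a9, a gene of nucleotide transport into vesicles, was at 259 CPM in the control library, with 5.18 and 5.48 CPM in resveratrol 1 and 2. Gstm7, a glutathione S-transferase gene with close paralogs that could share its reads, stood at 877 CPM in control against 5.68 and 7.27 CPM with resveratrol.

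Several of the other lower genes are known from epithelia of the male tract. Adgrg2, an adhesion receptor gene of the efferent ducts and epididymis, was at 951, 12.5 and 11.4 CPM in control, resveratrol 1 and resveratrol 2, a log2 difference of -6.31 (SE 0.38). Ly6g5b stood at 1937 CPM in the control library, with 0.909 and 0.856 CPM in resveratrol 1 and 2. Ido1, the gene of the tryptophan-degrading enzyme indoleamine dioxygenase, was at 452 CPM in control against 0.318 and 0.3501 CPM with resveratrol. Greb1, a gene of hormone receptor signalling, stood at 87.1, 0.409 and 0.233 CPM in control, resveratrol 1 and resveratrol 2, and Tecta, a tectorin gene, at 71.1 CPM in the control library, with 0.136 and 0.117 CPM in resveratrol 1 and 2. Sytl4, a gene of vesicle exocytosis, was at 265 CPM in control against 7.95 and 6.92 CPM with resveratrol, and Arnt2, a partner gene of bHLH-PAS factors, at 74.7, 1.23 and 1.05 CPM in control, resveratrol 1 and resveratrol 2. In each of these genes control was far above both resveratrol libraries. The resveratrol libraries lay near each other, which the choice by smallest p favours. These 10 genes had adjusted p from 0.134 to 0.161 in edgeR. The control library held the epididymis list at 70974 CPM, and the part of that tissue in these differences was not tested.

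**Figure D2:**
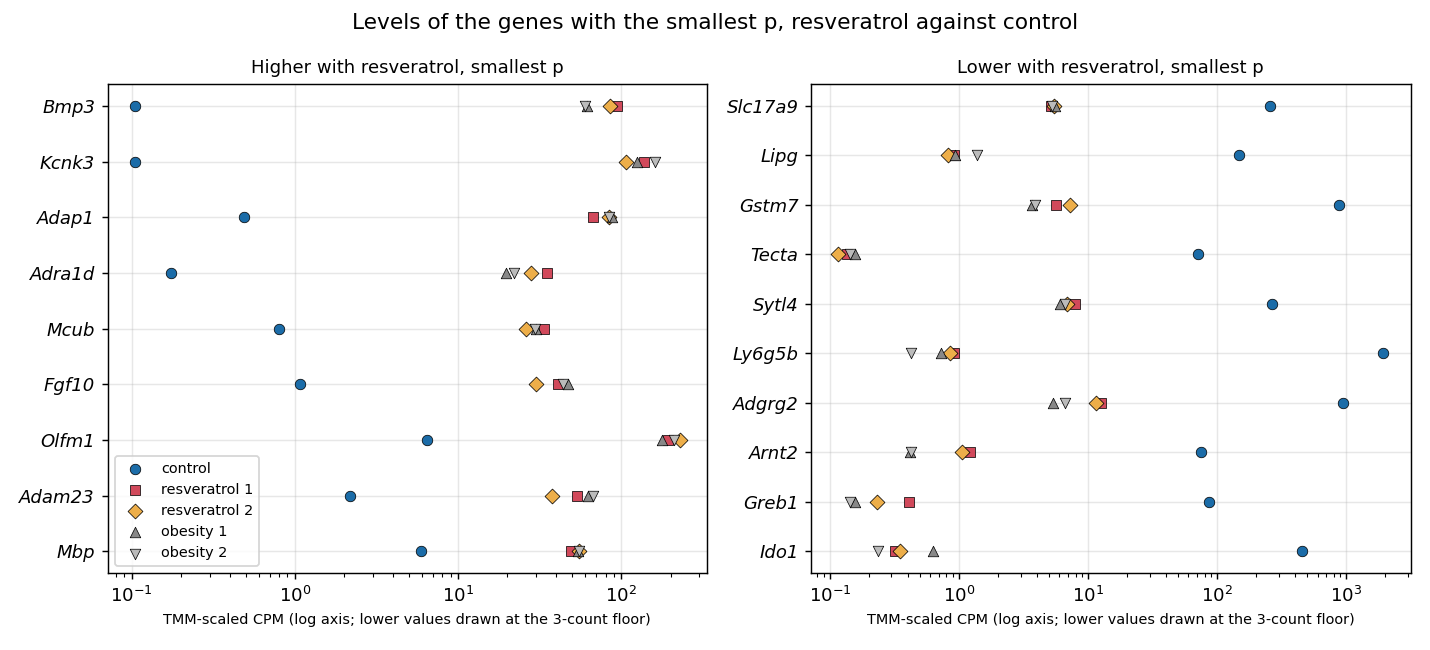
Level of 9 higher genes (left) and 10 lower genes (right) with the smallest p, one row per gene, in TMM-scaled CPM on a log axis, one marker per library. The single control marker lies apart from the other 4 in every row, and both resveratrol markers lie close to each other. The choice by smallest p favours both features.

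Genes were then ranked by the smaller of the 2 folds from control. At the upper end stood Kcnk3, Bmp3, Adra1d, Adap1, Sfrp5 and 3 genes of mast cell proteases. Tpsb2, a tryptase gene, had 3 counts in control, 0.105 CPM, and stood at 33.3 and 16.6 CPM in resveratrol 1 and 2. Mcpt4, a chymase gene, had no counts in control and reached 24.2 and 11.6 CPM. Cma1, another chymase gene, stood at 0.0697 CPM in the control library, with 21.9 and 10.3 CPM in resveratrol 1 and 2. These proteases were thus near the floor in control and higher in resveratrol 1 than in resveratrol 2. The obesity libraries had lower levels than the resveratrol libraries for Mcpt4, at 9.29 and 3.71 CPM, and for Tpsb2, at 9.39 and 3.904 CPM. Sfrp5, a secreted Wnt inhibitor gene of adipocytes, was at 1.5 CPM in control against 91.7 and 659 CPM with resveratrol, so the resveratrol libraries differed widely. Its log2 difference was 7.96 (SE 1.87).

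At the lower end stood 8 secretory genes of the epididymis. Gpx5, the gene of a secreted epididymal glutathione peroxidase, had 805707 counts in control, 4 in resveratrol 1 and 0 in resveratrol 2. Lcn8 and Lcn9, epididymal lipocalin genes, stood at 9451 and 4326 CPM in control and at 0 counts in both resveratrol libraries. Against the floor, control was at least 69346-fold higher than resveratrol 1 for Lcn8. Spag11b and Defb20, genes of the beta-defensin family, stood at 7583 and 4011 CPM in control and at 0 counts in both resveratrol libraries. Cst11, a cystatin gene, Rnase9, a ribonuclease A family gene, and Epp13, an epididymal protein gene, stood at 1965, 1981 and 1888 CPM in control and at 1 count or none in each resveratrol library. These genes separate the control library from both others, which Crisp1 did not. In all, 76 genes had 10 CPM or more in control and 0 counts in both resveratrol libraries. Another 3 genes had 10 CPM or more in both resveratrol libraries and 0 counts in control. These counts make unequal demands, as 10 CPM must be reached in the single control or in both resveratrol libraries.

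Another set of genes was high in control and resveratrol 1 and far lower in resveratrol 2. Counting genes at 5 CPM or more in both, and 10-fold or more above the highest of the other 3 libraries, gave 191 genes, of which 172 have a symbol. Crisp1 (ENSMUSG00000025431), the gene of a sperm-binding secretory protein of the epididymis, stood at 2459.5 CPM (95% exact interval 2441 to 2478) in control and 3397 CPM (3372.5 to 3421) in resveratrol 1. It had 0 counts in resveratrol 2 and in both obesity libraries. Crisp1 was therefore higher in resveratrol 1 than in control, and its log2 difference of -0.53 (SE 4.38) is drawn from opposed libraries. It was 0.49 without resveratrol 2 and 0.43 with the replicate number as a block. Serpina1f, a serpin gene, stood at 807 and 1093 CPM in control and resveratrol 1, and at 0 counts in the other 3 libraries. Spink8, a protease inhibitor gene, stood at 1978 and 796 CPM, and Defb42, a beta-defensin gene, at 1637 and 429.6 CPM. In resveratrol 2 Spink8 had 1 count and Defb42 had 0.

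Some transcription factor genes known from the developing urogenital tract were in this set too. Pax8 stood at 227 CPM in control and 139 CPM in resveratrol 1, with 0 counts in the other 3 libraries. Pou3f3 stood at 231 and 208 CPM, with 0 counts in resveratrol 2. Pax2 followed at 113 and 118 CPM and Emx2 at 86.2 and 98.4 CPM, against 0.0389 and 0.972 CPM in resveratrol 2. Cd52, a surface antigen gene of lymphocytes and of epididymal epithelium, stood at 908 and 1167 CPM, against 47.3 CPM in resveratrol 2. Fads2, the delta-6 fatty acid desaturase gene, stood at 386 and 1025 CPM, against 24.9 CPM. Tmem51 stood at 199.9 and 273 CPM against 13.5 CPM. Actg2, the gamma smooth muscle actin gene of visceral organs, stood at 1284 and 4809.7 CPM against 0.3501 CPM. Chd9 stood at 7043 and 2456 CPM against 99.6 CPM, and Bglap3 at 277 and 132 CPM against 0 CPM. Whether an overlapping gene adds to the Chd9 count was not tested, and Bglap3 has near-identical copies that could share its reads. Epcam, an epithelial adhesion gene, stood at 386 and 121 CPM and at 1 count in resveratrol 2.

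Genes of the vas deferens did not all keep to this pairing. Akr1b7 (ENSMUSG00000052131), the aldo-keto reductase gene known as the vas deferens protein, stood at 8.19 CPM (7.18 to 9.31) in control and 15288 CPM (15237 to 15340.1) in resveratrol 1. It had 0 counts in resveratrol 2 and 0.313 and 0.0952 CPM in the obesity libraries. Its log2 difference of 9.86 (SE 7.06) thus rests on resveratrol 1, and it was -10.59 without that library. It was 1866-fold higher in that library than in control. Aqp2, a water channel gene, stood at 0.942, 40.5 and 0.0778 CPM in control, resveratrol 1 and resveratrol 2, again high in resveratrol 1 alone. Aqp9, an aquaglyceroporin gene of the male ducts, did keep to the pairing and was at 118 CPM in the control library, with 121 and 7.39 CPM in resveratrol 1 and 2. Of the 11 tested genes of the vas deferens list, 7 stood below control in both resveratrol libraries, and 5 of these were above 10 CPM in control. Slc26a3, a chloride and bicarbonate exchanger gene, stood at 14.3 CPM in control against 0.0909 and 0.156 CPM with resveratrol. Car2, a carbonic anhydrase gene, was at 60.7, 0.999 and 2.801 CPM in control, resveratrol 1 and resveratrol 2, a log2 difference of -4.99 (SE 0.71).

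Smooth muscle genes set resveratrol 1 apart from all 4 other libraries. Among 247 genes at 5 CPM or more in resveratrol 1 and 10-fold above every other library, Myh11, the smooth muscle myosin heavy chain gene, stood at 19257 CPM. Control had 299 CPM and resveratrol 2 34.8 CPM. Acta2, the alpha smooth muscle actin gene, stood at 529 CPM in the control library, with 9423 and 279.7 CPM in resveratrol 1 and 2, and Cnn1, the calponin gene, at 76.1 CPM in control against 5925 and 0.817 CPM with resveratrol. Des, the desmin gene of muscle filaments, was at 97.5, 4497 and 43.02 CPM in control, resveratrol 1 and resveratrol 2. Of the 16 list members 4 were above control in both resveratrol libraries, 12 had control between the pair and none was below in both. Those 4 were Synpo2, Cald1, Smtn and Tagln, and Synpo2, an actin-binding gene, stood at 17.5 CPM in the control library, with 1627 and 665 CPM in resveratrol 1 and 2. The list median was 4.49 on the log2 scale, and -1.44 without resveratrol 1. Acta1, the skeletal actin gene, was at 3.66 CPM in control against 810.5 and 35.05 CPM with resveratrol.

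**Figure D3:**
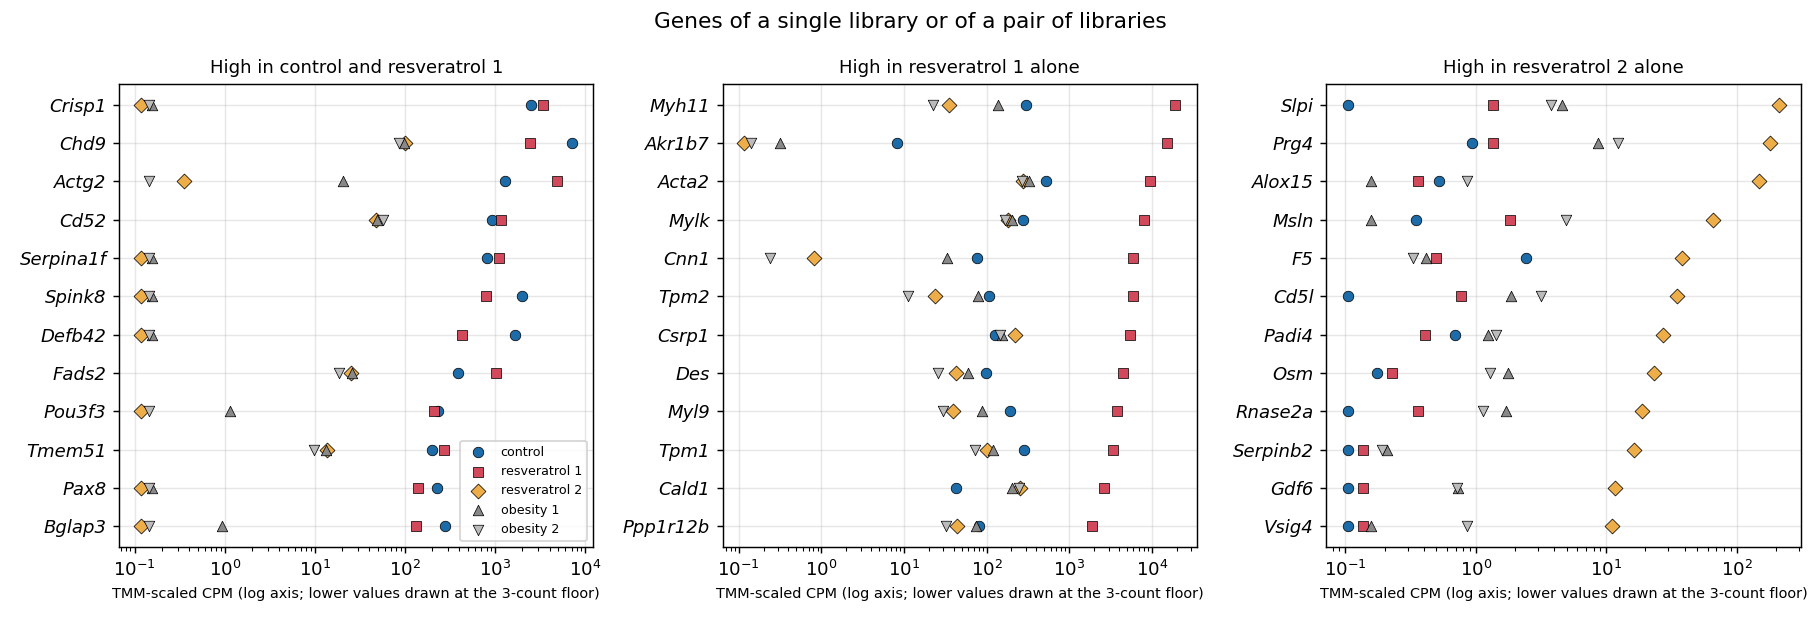
Levels in TMM-scaled CPM on a log axis, one marker per library, for 12 genes high in control and resveratrol 1 (left), 12 high in resveratrol 1 alone (middle) and 12 high in resveratrol 2 alone (right). Values under the 3-count floor are drawn at the floor. Crisp1 and Pax8 lie at the floor in resveratrol 2, and Myh11 and Akr1b7 stand apart in resveratrol 1.

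A small set of 15 genes was high in resveratrol 2 alone, and it held genes of the mesothelium, the lining of the abdominal cavity, and of its macrophages. Msln, the mesothelin gene, stood at 0.349, 1.82 and 65.4 CPM in control, resveratrol 1 and resveratrol 2. Prg4, the lubricin gene, was at 0.942 CPM in the control library, with 1.36 and 181 CPM in resveratrol 1 and 2. Slpi, a secretory protease inhibitor gene, had no counts in control and reached 1.36 and 211 CPM in resveratrol 1 and 2. Alox15, a lipoxygenase gene of peritoneal macrophages, stood at 0.523 CPM in control against 0.363 and 148 CPM with resveratrol, and Timd4, a receptor gene of resident macrophages, at 0.139, 0.273 and 8.87 CPM in control, resveratrol 1 and resveratrol 2. The 10 genes of the mesothelial list summed to 136, 248 and 473 CPM in control, resveratrol 1 and resveratrol 2. Gpm6a, a membrane glycoprotein gene in that list, was alike in the pair, at 0.767 CPM in the control library, with 27.9 and 31.5 CPM in resveratrol 1 and 2, a log2 difference of 5.27 (SE 0.91). Control alone had 586 genes by the limits used for a single library. The resveratrol pair together had 1 gene, with both libraries at 5 CPM or more and 10-fold above control and obesity. That demand is stricter, so these counts are not like for like.

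Most epithelial genes followed the order control, resveratrol 1, resveratrol 2. Of 16 epithelial and keratin genes, 15 were lower in both resveratrol libraries, with a median of -1.22 in resveratrol 1 and -7.78 in resveratrol 2. Krt18, a simple epithelial keratin gene, was at 463 CPM in control against 149 and 7.35 CPM with resveratrol. Cdh1, the E-cadherin gene, stood at 162, 86.5 and 0.156 CPM in control, resveratrol 1 and resveratrol 2. Krt14, a basal cell keratin gene, was at 70.02 CPM in the control library, with 15.6 and 6.77 CPM in resveratrol 1 and 2, a log2 difference of -2.65 (SE 0.92). Germ cell genes were at their highest in control, where Smcp, a sperm mitochondrial capsule gene, stood at 54.5 CPM against 0.454 and 0.0778 CPM with resveratrol. Odf1, a gene of the sperm tail, stood at 50.04 CPM in control against 0.727 and 0 CPM with resveratrol. Of 10 tested germ cell genes 8 were lower in both resveratrol libraries and 7 of them at least 4-fold.

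Adipocyte genes were higher in both resveratrol libraries than in control, and much higher in resveratrol 2. Of 20 adipocyte identity genes 19 stood above control in both, and 17 were in the order control, resveratrol 1, resveratrol 2. The median log2 difference was 5.19, against 0.05 over all genes tested. The median was 3.95 in resveratrol 1 and 5.88 in resveratrol 2 taken alone. The typical member stood in resveratrol 1 at 19.01% of its level in resveratrol 2. Adipoq, the adiponectin gene, stood at 14.2 CPM (12.9 to 15.7) in control, 266 CPM (259 to 273) in resveratrol 1 and 1699 CPM (1684 to 1715) in resveratrol 2. These 3 intervals did not overlap, and the log2 difference was 6.11 (SE 1.69). Lep, the leptin gene, was at 9.69, 277 and 2473 CPM in control, resveratrol 1 and resveratrol 2, a log2 difference of 7.15 (SE 2.05). The exception was Cebpb, an early factor of fat cell differentiation, at 93.3 CPM in the control library, with 34.6 and 183 CPM in resveratrol 1 and 2.

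Slc2a4 and Cfd had the smallest SEs of that list. Slc2a4 (ENSMUSG00000018566), the insulin-responsive glucose transporter gene, stood at 14.6 CPM in control against 267 and 178 CPM with resveratrol, a log2 difference of 3.92 (SE 0.57). It and Cidea were the 2 list members above control that were higher in resveratrol 1 than in resveratrol 2. Cfd, the gene of the adipokine adipsin, was at 95.6, 1449 and 1895 CPM in control, resveratrol 1 and resveratrol 2, a log2 difference of 4.13 (SE 0.78). Retn, the resistin gene, stood at 25.1 CPM in the control library, with 337 and 848 CPM in resveratrol 1 and 2. Lipe, the hormone-sensitive lipase gene, was at 30.9 CPM in control against 512 and 2473 CPM with resveratrol. In the adipokine list 13 of 17 tested genes were above control in both. Rbp4, the retinol binding protein gene, stood at 2.93, 88.4 and 499 CPM in control, resveratrol 1 and resveratrol 2, and Cxcl12, a chemokine gene, at 46.2 CPM in the control library, with 137 and 229.7 CPM in resveratrol 1 and 2. Lcn2, a lipocalin gene of epithelia and neutrophils, was instead lower with resveratrol, at 4613 CPM in control against 55.9 and 3.03 CPM with resveratrol, a log2 difference of -7.29 (SE 1.89), and it also met the limits for genes shared by control and resveratrol 1.

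**Figure D4:**
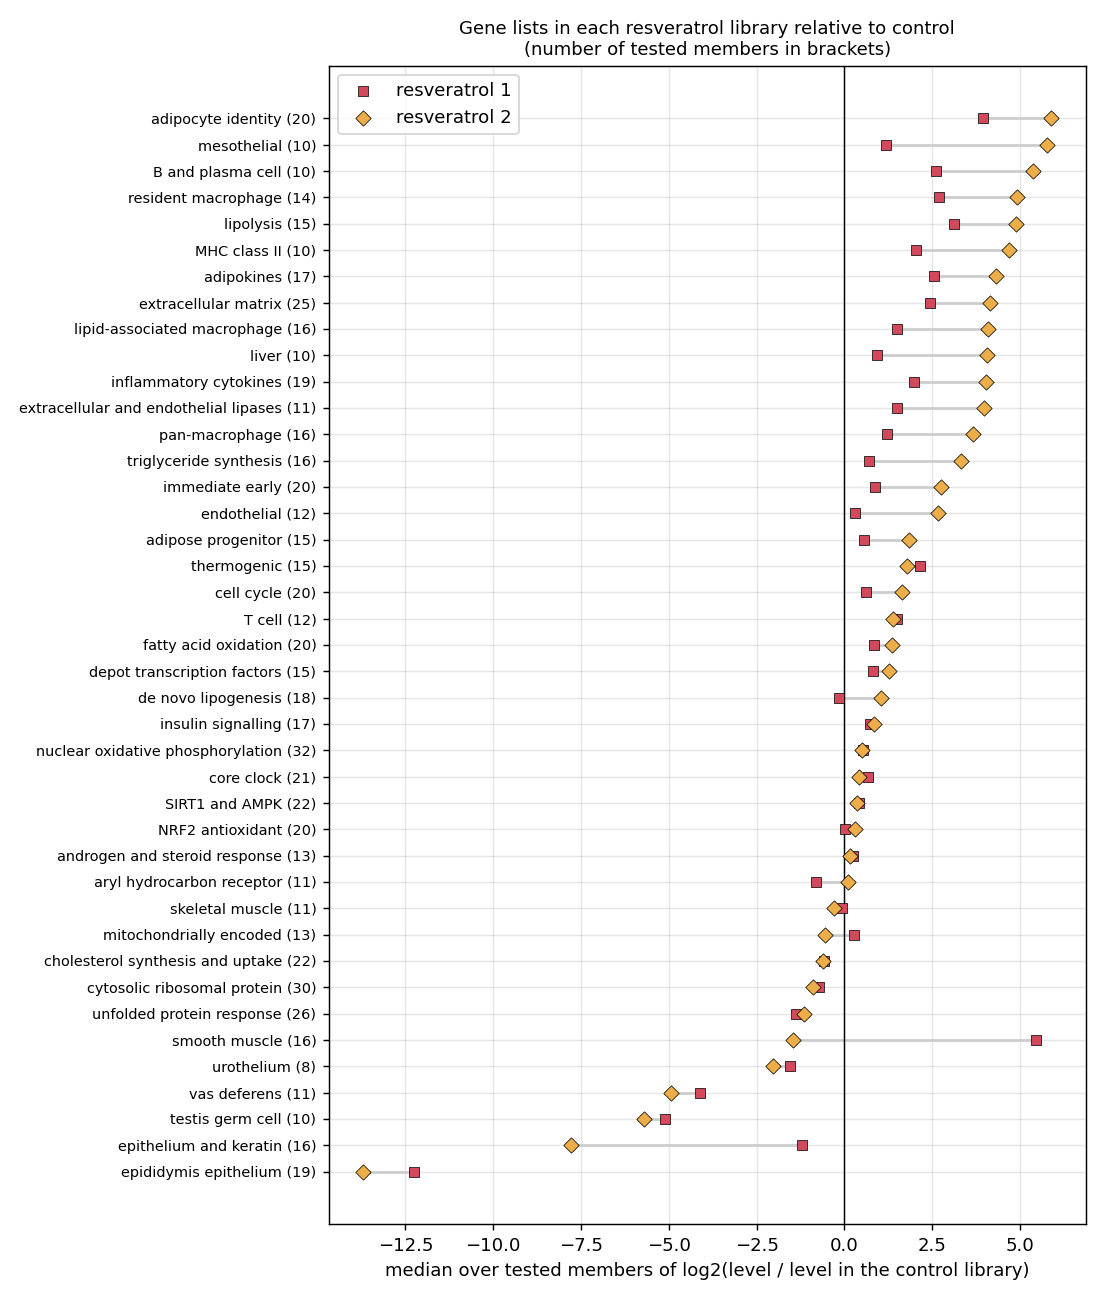
Median over the tested members of each gene list of the log2 ratio to the control library, with resveratrol 1 as squares and resveratrol 2 as diamonds, for the 41 lists with at least 5 tested members. Adipocyte, macrophage and matrix lists lie to the right with resveratrol 2 further out, the unfolded protein response and ribosomal lists lie to the left with both libraries close together, and the smooth muscle list is split.

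Lipolysis genes behaved as the adipocyte list did. Of 15 genes 14 were above control in both resveratrol libraries and 11 at least 4-fold, against 37.7% and 5.65% of all genes, with a median log2 difference of 4.17. Cav1, the caveolin gene of fat cell caveolae, was at 57.96, 1287 and 2262 CPM in control, resveratrol 1 and resveratrol 2, a log2 difference of 4.94 (SE 0.94). Pde3b, the phosphodiesterase gene through which insulin restrains lipolysis, stood at 20.2 CPM in the control library, with 115 and 229 CPM in resveratrol 1 and 2, a log2 difference of 3.09 (SE 0.65). Adrb3, the beta-3 receptor gene of fat cells, was at 7.15 CPM in control against 95.5 and 776 CPM with resveratrol, with resveratrol 1 far below resveratrol 2. Extracellular lipases split by gene. Lpl, the lipoprotein lipase gene, stood at 106, 1685 and 10574 CPM in control, resveratrol 1 and resveratrol 2, while Lipg and the hepatic lipase gene Lipc were the sole 2 of 11 tested genes that were lower in both. Lipc was at 15.5 CPM in the control library, with 0.182 and 0.583 CPM in resveratrol 1 and 2, a log2 difference of -5.31 (SE 0.92). Angptl4, an inhibitor gene of lipoprotein lipase, stood at 12.5 CPM in control against 127 and 994 CPM with resveratrol. Lipg and Lpl therefore lay on opposite sides of control in both resveratrol libraries.

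Fat synthesis genes were mixed. In the de novo lipogenesis list 6 of 18 genes were above control in both resveratrol libraries, 4 below and 8 had control between the pair. Its median log2 difference of 0.57 was -0.13 without resveratrol 2. Elovl6, a fatty acid elongase gene, was at 222, 22.5 and 14.3 CPM in control, resveratrol 1 and resveratrol 2, a log2 difference of -3.59 (SE 0.45). Acly, the ATP-citrate lyase gene, stood at 651 CPM in the control library, with 159.9 and 222 CPM in resveratrol 1 and 2, a log2 difference of -1.77 (SE 0.50). Me1, the malic enzyme gene, was at 11.8 CPM in control against 60.6 and 264 CPM with resveratrol, in the opposite direction. Scd1, the stearoyl-CoA desaturase gene, stood at 377, 2298 and 18989 CPM in control, resveratrol 1 and resveratrol 2, and Fasn, the fatty acid synthase gene, at 342 CPM in the control library, with 275 and 1780.4 CPM in resveratrol 1 and 2, where control lay between the pair. Triglyceride synthesis had 13 of 16 genes above control in both. Gpat3, an acyltransferase gene of the first step, was at 1.43 CPM in control against 15.7 and 81.96 CPM with resveratrol. Pck1, the gene of the kinase that makes glycerol precursors in fat, stood at 9.94, 166 and 1716 CPM in control, resveratrol 1 and resveratrol 2. Lpin2 and Lpin3, phosphatidate phosphatase genes, were lower, with Lpin2 at 43.6 CPM in the control library, with 19.5 and 25.4 CPM in resveratrol 1 and 2.

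Fatty acid oxidation genes had smaller differences and closer pairs. Of 20 genes 17 were above control in both resveratrol libraries and 1 of them at least 4-fold, with a median of 1.23. Acadvl, whose product opens the oxidation of very long acyl chains, was at 12.7 CPM in control against 55.4 and 81.7 CPM with resveratrol, a log2 difference of 2.43 (SE 0.41). Cpt2, a carnitine palmitoyltransferase gene of the inner membrane, stood at 21.8, 62.6 and 111 CPM in control, resveratrol 1 and resveratrol 2, a log2 difference of 1.99 (SE 0.49). Ehhadh, a peroxisomal enzyme gene, was at 17.1 CPM in the control library, with 53.7 and 37.5 CPM in resveratrol 1 and 2. Nuclear genes of oxidative phosphorylation had 23 of 32 tested members above control in both and a median of 0.57. Ndufs1, a complex I subunit gene, stood at 30.1 CPM in control against 76.8 and 79.6 CPM with resveratrol, and Ndufa9, a gene of the same complex, at 35.7, 87.4 and 84.7 CPM. The 13 genes of the mitochondrial genome showed no such side, with 4 above, 2 below and 7 with control between. In the thermogenic list 10 of 15 tested genes were above control in both resveratrol libraries, against 37.7% of all genes, and 4 were below. Its 16 genes summed to 586, 344 and 1866 CPM in control, resveratrol 1 and resveratrol 2. Ucp1, which encodes the proton carrier of brown fat, had 7 counts in control, 0 in resveratrol 1 and 5 in resveratrol 2. Ucp1 was thus near the floor in all 3 libraries compared, and its log2 difference of -1.22 (SE 3.34) is not read. Ucp3, a related carrier gene, was at 0.209, 2.59 and 33.6 CPM in control, resveratrol 1 and resveratrol 2.

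Endoplasmic reticulum chaperone genes stood lower in both resveratrol libraries than in control, and unlike the fat genes the pair lay close together. Of 26 genes of the unfolded protein response 19 were below control in both, against 41% of all genes, and 14 had an unadjusted p under 0.05 in edgeR in the lower direction, against 8.05%. The median log2 difference was -1.14, with -1.36 in resveratrol 1 and -1.14 in resveratrol 2 alone. Chaperone genes of this response are known to carry an endoplasmic reticulum stress element, bound by ATF6 and NF-Y, in their promoters. The full element, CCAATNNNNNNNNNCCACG on either strand, was looked for in RefSeq promoters (GRCm38.p6, from 250 bases before to 50 after a gene's start), where 23 of the 26 genes had an entry. It was found in 8 of these 23 promoters (34.8%) and in 39 of all 32851 promoters (0.119%). The stretches that follow, 5′ to 3′ on the gene's strand with the match in capitals, are shown for all 8 genes, each lower than control in both libraries, with Canx and Syvn1 last because their log2 differences were smaller than those of the other 6.
Creld2 (chr15:88819495-88819563, plus strand): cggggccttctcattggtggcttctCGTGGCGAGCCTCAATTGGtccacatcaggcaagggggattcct
Hspa5 (chr2:34772000-34772068, plus strand): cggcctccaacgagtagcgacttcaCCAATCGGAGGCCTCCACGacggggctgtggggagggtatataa
Calr (chr8:84847050-84847118, minus strand): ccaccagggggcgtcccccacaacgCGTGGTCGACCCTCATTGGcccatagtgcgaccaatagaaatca
Hsp90b1 (chr10:86705613-86705681, minus strand): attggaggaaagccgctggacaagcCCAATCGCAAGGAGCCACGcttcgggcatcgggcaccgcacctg
Pdia6 (chr12:17266466-17266534, plus strand): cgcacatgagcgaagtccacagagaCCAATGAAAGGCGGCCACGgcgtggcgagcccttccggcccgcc
Dnajc3 (chr14:118937802-118937870, plus strand): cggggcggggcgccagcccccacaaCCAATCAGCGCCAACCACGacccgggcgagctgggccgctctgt
Canx (chr11:50325775-50325843, minus strand): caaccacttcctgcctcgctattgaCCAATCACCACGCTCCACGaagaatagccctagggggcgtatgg
Syvn1 (chr19:6046507-6046575, plus strand): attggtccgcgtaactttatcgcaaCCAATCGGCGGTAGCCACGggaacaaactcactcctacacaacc
In Creld2 and Calr the match lies on the opposite strand, so the capitals open with the reverse complement. Hsp90b1 holds another match, which lies on the opposite strand. A match is a description of the letters in this window and not evidence that a factor binds there.

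Creld2 (ENSMUSG00000023272), which encodes a secreted stress-inducible protein disulfide isomerase-like factor, stood at 141 CPM (137 to 146) in control, 28.7 CPM (26.5 to 31.0) in resveratrol 1 and 26.3 CPM (24.4 to 28.4) in resveratrol 2. The resveratrol intervals overlapped each other and lay far below control, and the log2 difference was -2.36 (SE 0.27). Manf, a stress-inducible trophic factor gene, stood at 378 CPM in the control library, with 69.8 and 57.3 CPM in resveratrol 1 and 2, a log2 difference of -2.57 (SE 0.33). Pdia4, a disulfide isomerase gene, was at 404 CPM in control against 96.1 and 111 CPM with resveratrol, a log2 difference of -1.97 (SE 0.31). Ern1, the gene of the stress sensor IRE1 alpha, stood at 95.6, 35.4 and 32.6 CPM in control, resveratrol 1 and resveratrol 2. These 4 genes had adjusted p from 0.175 to 0.206 in edgeR. The obesity libraries were at a similar level for Creld2, at 29.01 and 33.9 CPM.

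Hspa5, the gene of the master chaperone BiP, was at 1205 CPM in the control library, with 329.9 and 428 CPM in resveratrol 1 and 2, and Calr, the calreticulin gene, at 1691 CPM in control against 377 and 569 CPM with resveratrol. Hsp90b1, the GRP94 gene, stood at 794, 218 and 307 CPM in control, resveratrol 1 and resveratrol 2, and Pdia6 at 662 CPM in the control library, with 144 and 251 CPM in resveratrol 1 and 2. Dnajc3, a co-chaperone gene, was at 261 CPM in control against 60.3 and 119 CPM with resveratrol, with resveratrol 1 at the lower level as for Hspa5, Calr, Hsp90b1 and Pdia6. Canx, the calnexin gene, stood at 418, 406 and 247 CPM in control, resveratrol 1 and resveratrol 2, and Syvn1, a ubiquitin ligase gene of protein disposal, at 148 CPM in the control library, with 76.4 and 126 CPM in resveratrol 1 and 2. Their log2 differences were -0.36 (SE 0.48) and -0.55 (SE 0.43), against -1.67 (SE 0.51) for Hspa5. The arm of the response that acts on translation was mixed. Ddit3, the CHOP gene, was at 22.6 CPM in control against 24.8 and 28.2 CPM with resveratrol, and Atf4 at 232, 177 and 141 CPM in control, resveratrol 1 and resveratrol 2. Trib3, a target gene of that arm, stood at 1.74 CPM in the control library, with 3.59 and 13.03 CPM in resveratrol 1 and 2, above control in both. Xbp1, the factor gene spliced by IRE1, was at 200.1 CPM in control against 142 and 198 CPM with resveratrol. Secretory epithelium has many of these chaperones, and the epididymis list was highest in control. Its part in these differences was not tested.

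**Figure D5:**
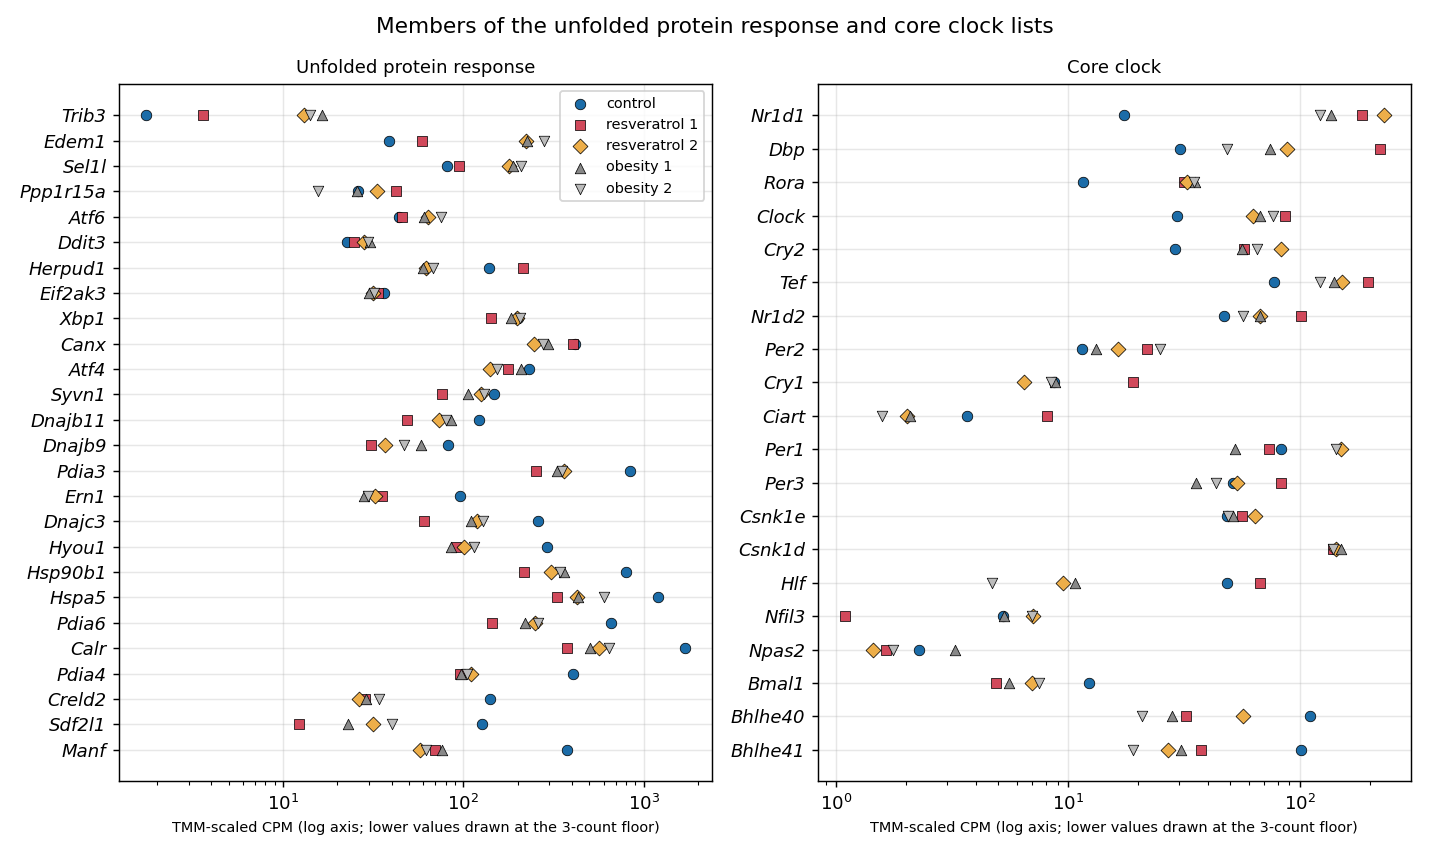
Levels in TMM-scaled CPM on a log axis, one row per gene and one marker per library, of the 26 unfolded protein response genes (left) and 20 of the 21 core clock genes (right), ordered by log2 difference. Control lies to the right of both resveratrol markers for Creld2, Manf and Pdia4, and to the left of them for Nr1d1 and Dbp.

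Clock genes differed by gene and not as a block. Of 21 genes 10 were above control in both resveratrol libraries, against 37.7% of all genes, and 5 were below. Nr1d1 (ENSMUSG00000020889), the REV-ERB alpha gene, a repressor of the clock and of fat cell metabolism, stood at 17.4 CPM (15.9 to 19.0) in control. It stood at 185 CPM (179 to 190.4) in resveratrol 1 and 229 CPM (223 to 235) in resveratrol 2, above control in both, with a log2 difference of 3.57 (SE 0.40). Its edgeR adjusted p was 0.175. The obesity libraries had 136 and 122 CPM, below both resveratrol libraries. Dbp, a clock output factor gene, stood at 30.3, 221 and 87.7 CPM in control, resveratrol 1 and resveratrol 2, with resveratrol 1 the highest. Rora, an activator gene that competes with REV-ERB, was at 11.5 CPM in the control library, with 31.5 and 32.5 CPM in resveratrol 1 and 2, a log2 difference of 1.47 (SE 0.30). Clock, the gene of the core activator, stood at 29.6 CPM in control against 85.7 and 62.4 CPM with resveratrol, and Cry2, a repressor gene, at 28.8, 57.6 and 82.4 CPM in control, resveratrol 1 and resveratrol 2.

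Members lower with resveratrol included the repressors Bhlhe41, at 101 CPM in the control library, with 37.3 and 27.00 CPM in resveratrol 1 and 2, and Bhlhe40, at 111 CPM in control against 32.3 and 56.7 CPM with resveratrol. Bmal1, the partner of CLOCK, was at 12.3, 4.91 and 7.002 CPM in control, resveratrol 1 and resveratrol 2. Per1, a repressor gene that responds to glucocorticoid, stood at 82.96 CPM in the control library, with 73.6 and 150.2 CPM in resveratrol 1 and 2, with control between the pair. The labels used here give no time of day of dissection, so the sampling time could not be compared between libraries. The E-box, CACGTG, to which CLOCK and BMAL1 bind, was found in 6 of 25 clock promoters (24.0%) from 5 of 17 genes, against 2349 of 32851 promoters (7.15%). The D-box, TTATGTAA, to which DBP and related factors bind, was found on either strand in 1 of the 25 clock promoters (4.0%), against 308 of all (0.938%). E-box matches in a gene higher with resveratrol, Tef, and a gene lower with it, Bhlhe41, are shown with the motif in capitals.
Tef (chr15:81802521-81802576, plus strand): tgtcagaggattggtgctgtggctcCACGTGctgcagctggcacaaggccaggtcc
Bhlhe41 (chr6:145865543-145865598, minus strand): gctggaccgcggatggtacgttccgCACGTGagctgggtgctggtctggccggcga
Tef, a factor gene of the same family as Dbp, was at 77.2 CPM in control against 196 and 152 CPM with resveratrol. The E-box thus occurred among genes of both directions.

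Insulin signalling genes had 11 of 17 members above control in both resveratrol libraries, against 37.7% of all genes, and a median of 0.84. With median-ratio scaling 10 of the 17 were above. Irs1, the insulin receptor substrate gene, stood at 7.04, 25.99 and 41.2 CPM in control, resveratrol 1 and resveratrol 2, a log2 difference of 2.25 (SE 0.47). Enpp1, the gene of an ectonucleotide pyrophosphatase that inhibits the insulin receptor, was at 416 CPM in the control library, with 4.22 and 7.31 CPM in resveratrol 1 and 2, a log2 difference of -6.17 (SE 0.49). The pair was alike in Enpp1, and control alone was high. Insr, the receptor gene, stood at 74.1 CPM in control against 70.1 and 107 CPM with resveratrol, where control lay between the pair.

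Sirt1, the deacetylase gene most often linked to resveratrol, was at 19.8, 18.3 and 16.1 CPM in control, resveratrol 1 and resveratrol 2. Its log2 difference of -0.20 was smaller than its SE of 0.36. In the SIRT1 and AMPK list 14 of 22 genes were above control in both resveratrol libraries, against 37.7% of all genes. Another 7 were below, Sirt1 among them, against 41% of all genes, and the median was 0.59. The members named next were all above control in both. Prkaa1, the AMPK alpha-1 gene, stood at 18.5 CPM in the control library, with 35.8 and 47.5 CPM in resveratrol 1 and 2, and Camkk2, an upstream kinase gene, at 10.5 CPM in control against 26.8 and 40.2 CPM with resveratrol. Nampt, the gene of the enzyme that limits NAD supply, was at 39.5, 73.4 and 64.2 CPM in control, resveratrol 1 and resveratrol 2. Prkaa2, the AMPK alpha-2 gene, stood at 3.38 CPM in the control library, with 37.2 and 7.35 CPM in resveratrol 1 and 2, highest in resveratrol 1, the library with smooth muscle genes. With median-ratio scaling 12 of the 22 were above control in both and 8 below.

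The NRF2 list was balanced, with 9 of 20 genes above control in both and 9 below. Slc7a11 (ENSMUSG00000027737), the cystine transporter gene, was at 60.9 CPM in control against 1.04 and 1.24 CPM with resveratrol, a log2 difference of -5.72 (SE 0.42). Gclm, the modifier subunit gene of glutathione synthesis, stood at 162, 74.9 and 47.6 CPM in control, resveratrol 1 and resveratrol 2. Hmox1, the heme oxygenase 1 gene, was at 7.88 CPM in the control library, with 39.3 and 91.2 CPM in resveratrol 1 and 2, and Gpx1 at 17.1 CPM in control against 64.5 and 117 CPM with resveratrol. Of these 4 genes Slc7a11 and Gclm were lower and Hmox1 and Gpx1 higher than in control in both libraries. In the list of the aryl hydrocarbon receptor, a sensor of aromatic compounds, 4 of 11 genes were above control in both and 4 below. Cyp1a1, its best-known target gene, had 1.604 CPM in control, 0 counts in resveratrol 1 and 1 count in resveratrol 2. Ahr itself stood at 9.799, 12.3 and 13.7 CPM in control, resveratrol 1 and resveratrol 2.

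In the list of cholesterol synthesis and uptake 12 of 22 genes (54.5%) were below control in both resveratrol libraries, against 41% of all genes. Another 5 were above and 5 had control between the pair, and the median log2 difference was -0.41. The members named here are from the lower side. Nsdhl, a sterol dehydrogenase gene, was at 135 CPM in the control library, with 19.4 and 28.5 CPM in resveratrol 1 and 2, a log2 difference of -2.50 (SE 0.34). Msmo1 and Cyp51, genes of the demethylation steps, were lower as well, with Msmo1 at 73.2 CPM in control against 31.4 and 24.8 CPM with resveratrol and Cyp51 at 72.1, 33.6 and 25.9 CPM in control, resveratrol 1 and resveratrol 2. Cytosolic ribosomal protein genes stood lower in both resveratrol libraries in 29 of 30 cases, with a median of -0.84. Rpl14 stood at 486 CPM in the control library, with 192 and 129 CPM in resveratrol 1 and 2, a log2 difference of -1.60 (SE 0.40), and Rpl15 at 123 CPM in control against 55.1 and 37.9 CPM with resveratrol. Pseudogene copies can take reads of ribosomal genes, so these levels are uncertain. The remaining member, Rps18, was at 3.94, 5.32 and 4.01 CPM in control, resveratrol 1 and resveratrol 2.

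Most macrophage genes were higher in both resveratrol libraries and highest in resveratrol 2. Of 16 pan-macrophage genes 14 were above control in both, with medians of 1.22 and 3.66 in resveratrol 1 and 2. Adgre1, the F4/80 gene, stood at 6.63 CPM in the control library, with 23.4 and 223 CPM in resveratrol 1 and 2, a log2 difference of 4.22 (SE 1.65). Resident macrophage genes were above control in 14 of 14 cases and at least 4-fold in 9. Clec10a, a lectin gene of such cells, was at 1.604 CPM in control against 37.9 and 101 CPM with resveratrol, a log2 difference of 5.43 (SE 0.91). Mgl2, its close relative, stood at 0.279, 12.4 and 83.01 CPM in control, resveratrol 1 and resveratrol 2, and Lyve1, a hyaluronan receptor gene, at 1.05 CPM in the control library, with 9.86 and 28.7 CPM in resveratrol 1 and 2. In the lipid-associated list 12 of 16 genes were above control in both, against 37.7% of all genes. Another 2 were below and 2 had control between the pair. Its member Spp1, which encodes osteopontin, was at 0.976 CPM in control against 8.59 and 16.6 CPM with resveratrol. The log2 difference of Spp1 was 3.68 (SE 0.63). Trem2, a lipid-sensing receptor gene of such cells, stood at 8.82, 34.2 and 164 CPM in control, resveratrol 1 and resveratrol 2. The adipocyte list was lower in control by a larger median, and the part of the tissue mixture in the macrophage values was not tested.

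Most cytokine genes had few counts in control. Of 19 tested genes 15 were above control in both, against 37.7% of all genes, and 4 had control between the pair. Of the 15 higher genes 3, Ccl4, Nos2 and Cxcl2, had 0 counts in control. The 21 genes of the list summed to 101, 88.9 and 389 CPM in control, resveratrol 1 and resveratrol 2. The sum was thus higher in control than in resveratrol 1. Ccl2, the gene of a monocyte chemoattractant, was at 0.314 CPM in the control library, with 5.54 and 30.96 CPM in resveratrol 1 and 2, a log2 difference of 5.84 (SE 1.49). Ccl7 stood at 0.139 CPM in control against 6.36 and 27.8 CPM with resveratrol and Ccl8 at 0.349, 5.18 and 18.6 CPM in control, resveratrol 1 and resveratrol 2. Tnf was at 0.139 CPM in the control library, with 0.545 and 1.24 CPM in resveratrol 1 and 2 and Il6 at 0.139 CPM in control against 0.273 and 2.295 CPM with resveratrol, near the 3-count floor in control. Of 10 tested B and plasma cell genes 9 were above control in both and 1 below. Ighm, the IgM heavy chain gene, stood at 5.23, 84.04 and 909 CPM in control, resveratrol 1 and resveratrol 2, and Cd79a reached 1.36 and 7.35 CPM from no counts in control. Of 12 T cell genes 8 were above control in both and 1 was below. That 1 was Zap70, a T cell kinase gene, at 34.1 CPM in the control library, with 1.68 and 1.56 CPM in resveratrol 1 and 2, a log2 difference of -4.39 (SE 0.69), while Cd3d had no counts in control and stood at 0.727 and 1.24 CPM. In the MHC class II list 7 of 10 genes were above control in both and 1 was below, with a median of 3.94. H2-Aa was at 35.9 CPM in control against 152 and 900.00 CPM with resveratrol, and the lower gene was H2-DMb2, at 58.6, 1.499 and 9.96 CPM in control, resveratrol 1 and resveratrol 2.

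Matrix genes were above control in both libraries in 24 of 25 cases, and 18 of them at least 4-fold. The median log2 difference was 3.55. Col6a3, a collagen VI gene of fat, stood at 20.7 CPM in the control library, with 272 and 396 CPM in resveratrol 1 and 2, a log2 difference of 4.01 (SE 0.62). Fn1, the fibronectin gene, was at 18.03 CPM in control against 605 and 1593 CPM with resveratrol, a log2 difference of 5.93 (SE 1.07), with 197 and 286 CPM in obesity 1 and 2, below both resveratrol libraries. Timp3, an inhibitor gene of matrix proteases, stood at 19.6, 127 and 173 CPM in control, resveratrol 1 and resveratrol 2, and Mmp2, the gelatinase gene, at 3.21 CPM in the control library, with 21.5 and 57.1 CPM in resveratrol 1 and 2. All of these had control lowest and resveratrol 2 highest. Mmp14 was the exception at 104 CPM in control against 90.1 and 93.3 CPM with resveratrol. In the progenitor list 10 of 15 genes were above control in both and 2 were below, with a median of 1.49. Pi16, a gene of early fat progenitors, was at 4.11, 28.1 and 45.4 CPM in control, resveratrol 1 and resveratrol 2, a log2 difference of 3.16 (SE 0.51). The 2 lower members were Pdgfra, a receptor gene of stromal cells, at 150.4 CPM in the control library, with 56.9 and 46.6 CPM in resveratrol 1 and 2, and Dpp4, at 82.2 CPM in control against 29.7 and 32.8 CPM with resveratrol. Endothelial genes had 7 of 12 above control in both and 5 with control between the pair, with Cldn5 at 24.4, 52.5 and 391 CPM in control, resveratrol 1 and resveratrol 2.

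Cell cycle genes were low in all 3 libraries, and 16 of 20 were above control in both. Birc5, a survivin gene of mitosis, stood at 0.872 CPM in the control library, with 4.04 and 8.36 CPM in resveratrol 1 and 2, a log2 difference of 2.82 (SE 0.73), and Top2a, a topoisomerase gene, at 2.58 CPM in control against 7.09 and 23.03 CPM with resveratrol. Mki67 was at 5.61, 8.72 and 32.8 CPM in control, resveratrol 1 and resveratrol 2. Immediate early genes, which respond within minutes to handling or hormones, had 16 of 20 above control in both. Dusp1, a phosphatase gene, stood at 16.1 CPM in the control library, with 101 and 366 CPM in resveratrol 1 and 2, and Egr1 at 27.4 CPM in control against 93.99 and 252 CPM with resveratrol. Egr2 was the sole member below control in both, at 238, 29.1 and 26.5 CPM in control, resveratrol 1 and resveratrol 2, a log2 difference of -3.10 (SE 0.40). Steroid response genes had 5 of 13 above and 5 below. Hsd11b1, the gene that regenerates glucocorticoid in fat, was at 2.02 CPM in the control library, with 30.3 and 60.7 CPM in resveratrol 1 and 2, a log2 difference of 4.49 (SE 0.75). Fkbp5, a glucocorticoid and androgen target gene, stood at 326 CPM in control against 82.2 and 32.99 CPM with resveratrol. Srd5a2, the steroid 5-alpha reductase gene of male accessory tissue, was at 123, 6.81 and 0.0778 CPM in control, resveratrol 1 and resveratrol 2.

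Genes that mark the position of a fat depot were compared last. Of 15 tested genes 6 were above control in both resveratrol libraries and 3 below, and the resveratrol libraries differed from each other. Hoxa10 stood at 2.51 CPM in the control library, with 93.3 and 0.0389 CPM in resveratrol 1 and 2, and Nr2f1 at 3.94 CPM in control against 65.8 and 9.53 CPM with resveratrol, both highest in resveratrol 1. Wt1, a factor gene of visceral fat and mesothelium, was at 0.349, 2.32 and 11.7 CPM in control, resveratrol 1 and resveratrol 2, in the order control, resveratrol 1, resveratrol 2. Hoxc8 stood at 39.8 CPM in the control library, with 24.8 and 119.8 CPM in resveratrol 1 and 2, with control between the pair.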

How the data were processed

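Poly-A RNA of visceral fat was sequenced as stranded paired-end reads of 150 bases, per the labels' protocols. The authors deposited raw whole-number counts per gene for 78334 Ensembl identifiers, 65.7% of which have a symbol. The submitters' processing notes name FastQC, featureCounts and build GRCm39, while for the aligner, annotation release and strand setting nothing is given in the sources used here. The gene reference at hand was of another build, so genes carry names and identifiers but no coordinates, and promoter sequences and positions are RefSeq's on GRCm38.p6.

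Counts were filtered by group (filterByExpr, minimum count 10, minimum total 15), scaled by TMM and fitted over all 5 libraries with robust edgeR 4.0.16 in R 4.3.3. The contrast of resveratrol with control had Benjamini-Hochberg adjustment at 0.05 over 24779 genes. This assumes that the single control varies like the other groups. A gene high in 1 library alone could pass the filter. The SE is the absolute log2 difference over the square root of F. The spread within the obesity and resveratrol pairs was a biological coefficient of variation of 62.2%, to which the single control adds nothing. In each library 17929 to 22955 genes had 10 or more counts, and exact 95% intervals cover counting error only. The scripts were tested on simulated data.

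The members, the 42 gene lists and the rules were chosen with earlier results of these data known. Of 668 genes in the lists 645 were tested, 22 had too few counts and 1 matched no identifier. Lists are described by counts and medians, with no set test. The rule named 10 genes per direction with the smallest p (mean of 1 CPM or more leaving out predicted genes, clones and antigen receptor segments), 8 per direction with the largest smaller fold at 10 CPM or more, the 12 highest genes shared by control and resveratrol 1, the fixed markers, and up to 4 members per list with the smallest p. Others given were chosen after their values were seen, namely Acta2, Ahr, Alox15, Aqp2, Aqp9, Atf4, Bhlhe40, Bmal1, Calr, Canx, Cdh1, Cebpb, Cidea, Cnn1, Cry2, Cxcl12, Cxcl2, Dbp, Ddit3, Des, Dnajc3, Emx2, Epcam, Fasn, H2-Aa, Hoxa10, Hoxc8, Hsp90b1, Hspa5, Il6, Insr, Krt18, Lcn2, Lpin2, Mki67, Mmp14, Msln, Myh11, Nos2, Odf1, Pax2, Pdia6, Per1, Prg4, Prkaa2, Rps18, Scd1, Slpi, Srd5a2, Syvn1, Tef, Timd4, Tnf, Trem2, Trib3 and Xbp1. A few genes that the rule or the lists hold are not reported here. Alternatives were median-ratio size factors, 2 other filters, DESeq2 1.42.0, limma-voom 3.58.1, a fit that is not robust, a fit of the 3 libraries alone, a replicate block and leaving out libraries. Figures used Python 3.11.15 and matplotlib 3.10.9.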

Additional observations from a re-analysis of the deposited data

How the results depend on the processing

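The count of called genes, 0 here, was also 0 with median-ratio size factors, with the filter at 1 CPM in 2 libraries, with a fit that is not robust, with the 3 compared libraries alone and with the replicate number as a block. It was 1671 with no filter on low counts, 3031 with DESeq2 and 80 with limma-voom, and 0 to 7469 when 1 library was left out, the highest without resveratrol 1. The numbers 1 and 2 are not said to pair libraries, control and resveratrol share number 1 alone, and the correlation of number differences between obesity and resveratrol was 0.299 across genes. The 191 genes shared by control and resveratrol 1 became 88 at 20 CPM, 422 at 4-fold and 365 over the 3 compared libraries. Genes at least 4-fold higher in both, 1399, became 3479 at 2-fold, 165 at 16-fold and 1238 with the filter at 1 CPM in 2 libraries, and 2716 to 3623 with 1 resveratrol library left out. Genes at least 4-fold lower, 2960, became 5345 at 2-fold, 753 at 16-fold and 549 with the filter at 1 CPM in 2 libraries, and 3558 to 5515 with 1 resveratrol library left out. The filter at 1 CPM in 2 libraries removes, by construction, genes that reach 1 CPM in control alone.

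Of 2281 values of the log2 difference for 193 named genes under 12 settings, 1710 kept their direction and side of the threshold, 567 newly passed it and 4 turned. Those settings include the fits without a resveratrol library, where the spread came from the obesity pair alone. Crisp1 turned to 0.43 with the replicate block, and it was -18.81 without resveratrol 1 and 0.49 without resveratrol 2. Akr1b7 was -10.59 without resveratrol 1 and 10.89 without resveratrol 2, and Ucp1 turned to 1.36 with the replicate block. List medians that changed sign were de novo lipogenesis (-0.13 without resveratrol 2), the aryl hydrocarbon receptor list (0.12 without resveratrol 1), smooth muscle (-1.44 without resveratrol 1) and testis germ cell (0.70 over the 3 genes left by the 1 CPM filter). Skeletal muscle went to -0.27 and -0.04 without resveratrol 1 and 2, steroid response to -0.01 without resveratrol 1, and mitochondrially encoded genes to 0.0007 with no filter on low counts, 0.24 with the block and 0.30 without resveratrol 2. The cause of these changes was not tested, beyond the removal of genes or libraries by construction. The single control library could not be left out. Genes under 3 counts, 0.105 to 0.157 CPM, are not resolved at this depth.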
